A study of Mus musculus with 21 samples.

Results

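The comparison set PDGFRalpha-negative against PDGFRalpha-positive cells among FLK1-positive, Etv2-reporter-negative cells of mouse embryoid bodies, using 6 of the 21 libraries of the study. The members were chosen by their sort labels alone: 3 libraries of PDGFRalpha-FLK1+ cells (SP) and 3 of PDGFRalpha+FLK1+ cells (DP), all negative for tdTomato. Both groups came from day 4 embryoid bodies grown from the embryonic stem cell line T-GFP; Etv2-tdTomato, which holds a reporter for each of these genes, and no agent is named for these cultures. The stem cells had been kept on irradiated mouse embryonic fibroblast feeders and then without feeders before they formed embryoid bodies. Also used here are SP and DP cells that were positive for tdTomato in the same line, and SP and DP cells that were not split by a reporter, from A2lox.Cre, a wildtype line (WT), with 3 libraries in each group. The remaining group, SP cells with Etv2 induced by doxycycline, enters only the shared estimate of spread of the WT fit. Whether T-GFP served as a gate, whether WT cultures received doxycycline and how many clones of each line were used are not given in the sources used here.

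PDGFRalpha, the product of Pdgfra, is a receptor tyrosine kinase for platelet-derived growth factors and is found on nascent, paraxial and cardiac mesoderm. FLK1, the product of Kdr, is the main signaling receptor for vascular endothelial growth factor and marks mesoderm from which blood, endothelium and part of the heart arise. Etv2, a transcription factor of the ETS family, is needed to form blood and endothelium, so its reporter marks cells in which that program has been switched on. The comparison asks what distinguishes FLK1-positive mesoderm with and without PDGFRalpha when that reporter is not detected.

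Counts assigned to genes were 27415801, 30613029 and 28943771 in SP replicates 1 to 3, against 25045553, 32777143 and 29157330 in the DP replicates. A limit of 3 counts, which a count of 0 allows, stood for 0.0915 to 0.1198 CPM (counts scaled to the library's total of assigned counts) in these libraries, for counting error only. Ribosomal RNA genes took 1.28% of counts in SP replicate 2 and at most 0.338% in the other 5 libraries. Log2 fold changes (SP over DP) are given ± SE and mean CPM ± SD, each group having 3 libraries. Adjusted p-values are from the quasi-likelihood F test of edgeR across all genes with Benjamini-Hochberg adjustment, and a gene is called at an adjusted p below 0.05. Nothing in the labels says that replicates came from separate cultures, so these p-values measure only the spread between these libraries, which may be technical.

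DP replicate 3 stood apart from the other DP libraries. On the first principal component, which held 53.6% of the variance, the SP libraries lay at 25.2, 18.5 and 34.0 and the DP libraries at -36.55, -33.2 and -7.88. Among the genes called below, DP replicate 3 was the DP library nearest to the SP mean in 72.3%, against 12.1% for DP replicate 1 and 15.6% for DP replicate 2. The second component set replicate 3 of both gates apart from replicates 1 and 2. For many list counts and some genes, results that leaving out a library moves are given with the values without it. Genes given without such values did not always keep their call. Of 94 named calls, 32, 34 and 6 were lost without DP replicates 1, 2 and 3. Without SP replicates 1, 2 and 3, 22, 12 and 21 were lost. Clic6 and Myl4, given below without such values, were among those lost.

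**Figure D1:**
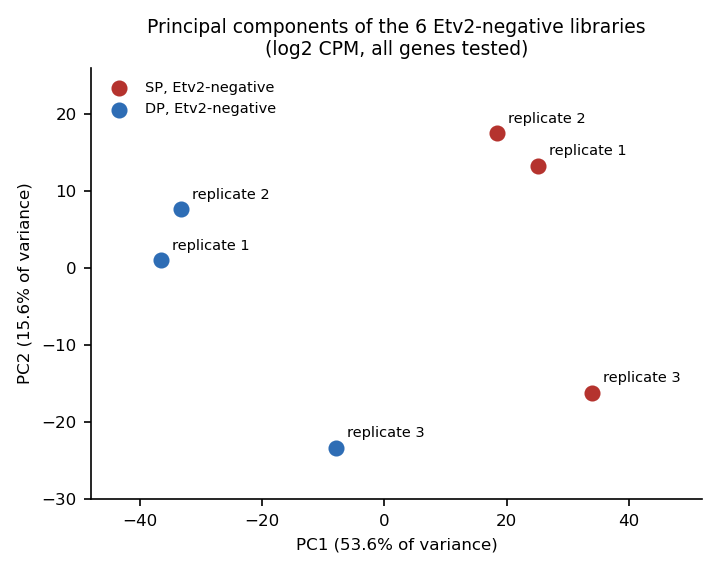
Principal components of the 6 Etv2-negative libraries from log2 CPM of all genes tested, with SP in red and DP in blue and 1 point per library. The gates separate along the horizontal axis, where DP replicate 3 lies at -7.88 between the other DP libraries and the SP libraries.

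The genes of the sort followed the labels. Pdgfra (ENSMUSG00000029231, mm10 chromosome 5, 75152292 to 75198215, plus strand) had 53.8, 59.7 and 41.6 CPM in SP libraries, against 271, 276 and 213 CPM in DP libraries. It was 4.90-fold lower in SP cells with no overlap between the gates (log2 fold change -2.29 ± 0.20, edgeR adjusted p = 6.14e-05). The cells were sorted on its protein, so this call checks the sort and is no independent result. Kdr (chromosome 5, 75932827 to 75978458, minus strand), selected for in both gates, had 521, 543 and 514 CPM in SP and 608, 615 and 537 CPM in DP libraries. The gates overlapped and Kdr was not called (-0.16 ± 0.12, edgeR adjusted p = 0.453).

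Etv2 transcripts were present in both reporter-negative gates. Etv2 (chromosome 7, 30633616 to 30635852, minus strand) had 27.7, 26.5 and 25.6 CPM in SP and 23.2, 19.4 and 18.1 CPM in DP libraries. All SP libraries lay above all DP libraries, but the difference was not called (0.40 ± 0.15, edgeR adjusted p = 0.110). It was called with no filter on low counts, when only the compared groups were fitted and with the replicate number as a block. The labels give no such pairing. In the tdTomato-positive cells of the same line Etv2 averaged 89.0 CPM in SP and 58.4 CPM in DP. T, the streak gene behind the other reporter, had 68.8, 79.4 and 39.0 CPM in SP and 126, 114 and 70.5 CPM in DP, and was not called (-0.73 ± 0.29, edgeR adjusted p = 0.140). Replicate 3 had the lowest T level in each gate.

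Of 17690 genes tested, 1936 were called, which is 10.9%. In SP cells 1079 genes were higher (6.1% of those tested) and 857 lower (4.84%), and 279 of the higher and 215 of the lower genes changed at least 2-fold. The median log2 fold change over all genes tested was 0.00. Groups that do not overlap in CPM were found for 32.1% of all genes tested. The count was 787 without DP replicate 1, 815 without DP replicate 2 and 2268 without DP replicate 3. It was 1049, 1407 and 1092 without SP replicates 1, 2 and 3.

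The 12 largest increases in SP cells, among called genes of at least 5 CPM with gates that did not overlap, were led by Tal1, a basic helix-loop-helix factor that specifies blood and endothelium. Tal1 (ENSMUSG00000028717, mm10 chromosome 4, 115056426 to 115071755, plus strand) had 8.25, 16.9 and 20.4 CPM in SP libraries, against 0.823, 1.08 and 0.741 CPM in DP libraries. Even the lowest SP library, replicate 1, was well above every DP library, and the difference was 17.0-fold (4.09 ± 0.46, edgeR adjusted p = 0.000258). Lmo2, the LIM-domain partner that bridges Tal1 to GATA factors, had 7.64, 16.5 and 13.8 CPM in SP and 3.37, 3.37 and 2.93 CPM in DP libraries. Lmo2 rose 3.94-fold (1.98 ± 0.26, edgeR adjusted p = 0.000614), again with SP replicate 1 the lowest of its gate.

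Pdgfb, a ligand of the PDGF receptors that endothelial cells are known to secrete, had 12.9, 10.9 and 9.18 CPM in SP and 2.51, 2.02 and 3.06 CPM in DP libraries. The increase was 4.35-fold (2.12 ± 0.16, edgeR adjusted p = 4.93e-05), and the gates were far apart in every replicate. Nfatc2, a calcineurin-regulated transcription factor, had 10.5, 7.31 and 11.7 CPM in SP and 1.61, 1.48 and 3.47 CPM in DP libraries (2.17 ± 0.27, edgeR adjusted p = 0.000462). Flrt3, a membrane protein that binds FGF receptors and Unc5 receptors, had 30.0, 24.6 and 27.4 CPM in SP and 7.45, 7.17 and 11.1 CPM in DP libraries (1.67 ± 0.18, edgeR adjusted p = 0.000188). In both Nfatc2 and Flrt3 the highest DP library was replicate 3. Ryr2, the calcium release channel of the heart, had 9.43, 5.82 and 10.4 CPM in SP and 1.49, 2.38 and 3.23 CPM in DP libraries (1.84 ± 0.28, edgeR adjusted p = 0.00169). Its lowest SP library still exceeded its highest DP library. The other 6 of the 12 were the mucin-like Parm1 (2.35 ± 0.30), Exoc3l (2.19 ± 0.31), the connexin gene Gjb2 (2.15 ± 0.26), Clic6 of the chloride intracellular channel family (2.11 ± 0.47), Tdrp (1.78 ± 0.29) and the stress-inducible Gadd45g (1.6 ± 0.26).

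Promoter windows of 300 bases, from 250 bases before to 50 bases after the annotated start, were available from RefSeq on GRCm38.p6 for 17 of the genes with the 12 largest increases or 12 largest decreases, Pdgfra among them. They were searched on both strands for 4 motifs. Those of the GATA and forkhead families were spelled AGATAA for the zinc finger factors and, for the winged helix factors, TGTTTAC. Those of the T-box and ETS families were spelled AGGTGTGA for the T-box factors and CCGGAAGT for the ETS factors. These motifs occurred in 11.4, 3.55, 1.27 and 4.0% of the 27025 promoter windows in the table, in that order. Among the 11221 genes tested here that had a window, the shares were 6.23, 2.49, 0.847 and 7.99%. A match was found in 2 of the 17 windows, both of genes that rose, and no motif overlapped another. The windows of Tal1 (chr4:115056176-115056475, plus strand), with the GATA motif read on the opposite strand, and of Nfatc2 (chr2:168601608-168601907, minus strand), with the forkhead motif read on the opposite strand, are shown for these matches, each 5′ to 3′ along its gene with the matching bases in capitals.
Tal1: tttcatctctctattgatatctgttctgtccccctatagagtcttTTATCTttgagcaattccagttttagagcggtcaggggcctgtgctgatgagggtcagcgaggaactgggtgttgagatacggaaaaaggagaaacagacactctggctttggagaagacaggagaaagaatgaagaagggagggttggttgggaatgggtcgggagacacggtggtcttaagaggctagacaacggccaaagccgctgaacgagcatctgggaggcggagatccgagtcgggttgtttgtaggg
Nfatc2: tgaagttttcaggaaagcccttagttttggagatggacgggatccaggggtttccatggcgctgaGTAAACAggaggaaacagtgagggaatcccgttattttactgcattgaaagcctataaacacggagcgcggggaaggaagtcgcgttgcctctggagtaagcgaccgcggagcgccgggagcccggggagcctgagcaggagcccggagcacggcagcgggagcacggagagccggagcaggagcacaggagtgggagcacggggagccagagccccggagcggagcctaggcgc
A match describes these letters only, and no binding was measured.

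The 12 largest decreases in SP cells held regulators of the segmenting paraxial mesoderm. Lefty2, a secreted antagonist of Nodal (chromosome 1, 180893108 to 180899103, plus strand), had 7.17, 10.2 and 2.93 CPM in SP libraries, against 111, 93.2 and 34.9 CPM in DP libraries. It was 11.8-fold lower (-3.56 ± 0.52, edgeR adjusted p = 0.00115), the gates did not overlap, and replicate 3 was lowest in each. In the 50-base windows of its transcript, 88.1% were unique to it, so some of its reads could be shared with a close copy. Mesp2, which sets the border of the next somite (chromosome 7, 79810727 to 79813439, plus strand), had 2.76, 3.06 and 1.88 CPM in SP and 16.6, 14.6 and 11.5 CPM in DP libraries. It was 5.54-fold lower (-2.47 ± 0.19, edgeR adjusted p = 4.93e-05).

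Foxc2, a forkhead factor of paraxial mesoderm, had 1.97, 2.24 and 1.53 CPM in SP and 10.1, 10.7 and 13.0 CPM in DP libraries (-2.55 ± 0.21, edgeR adjusted p = 5.70e-05). Unlike Lefty2, Foxc2 was highest in DP replicate 3. The Notch ligand Dll1 had 6.96, 8.58 and 4.54 CPM in SP and 34.9, 34.1 and 28.0 CPM in DP libraries (-2.27 ± 0.22, edgeR adjusted p = 0.000126). Its highest SP library was far below its lowest DP library. The divergent Notch ligand Dll3 had 22.4, 31.4 and 17.3 CPM in SP and 130, 118 and 77.1 CPM in DP libraries (-2.19 ± 0.30, edgeR adjusted p = 0.000808). Rimbp2, which binds the presynaptic Rim proteins, was nearly constant in SP at 3.19, 3.19 and 3.21 CPM, against 25.5, 19.1 and 17.7 CPM in DP libraries (-2.70 ± 0.20, edgeR adjusted p = 4.93e-05). The remaining decreases were in the ligand Wnt2b (-2.72 ± 0.35), the protocadherins Pcdh19 (-2.52 ± 0.20) and Pcdh8 (-2.45 ± 0.34), the potassium channel gene Kcnc1 (-2.36 ± 0.48) and the Notch glycosyltransferase Lfng (-2.23 ± 0.27), beside Pdgfra itself.

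**Figure D2:**
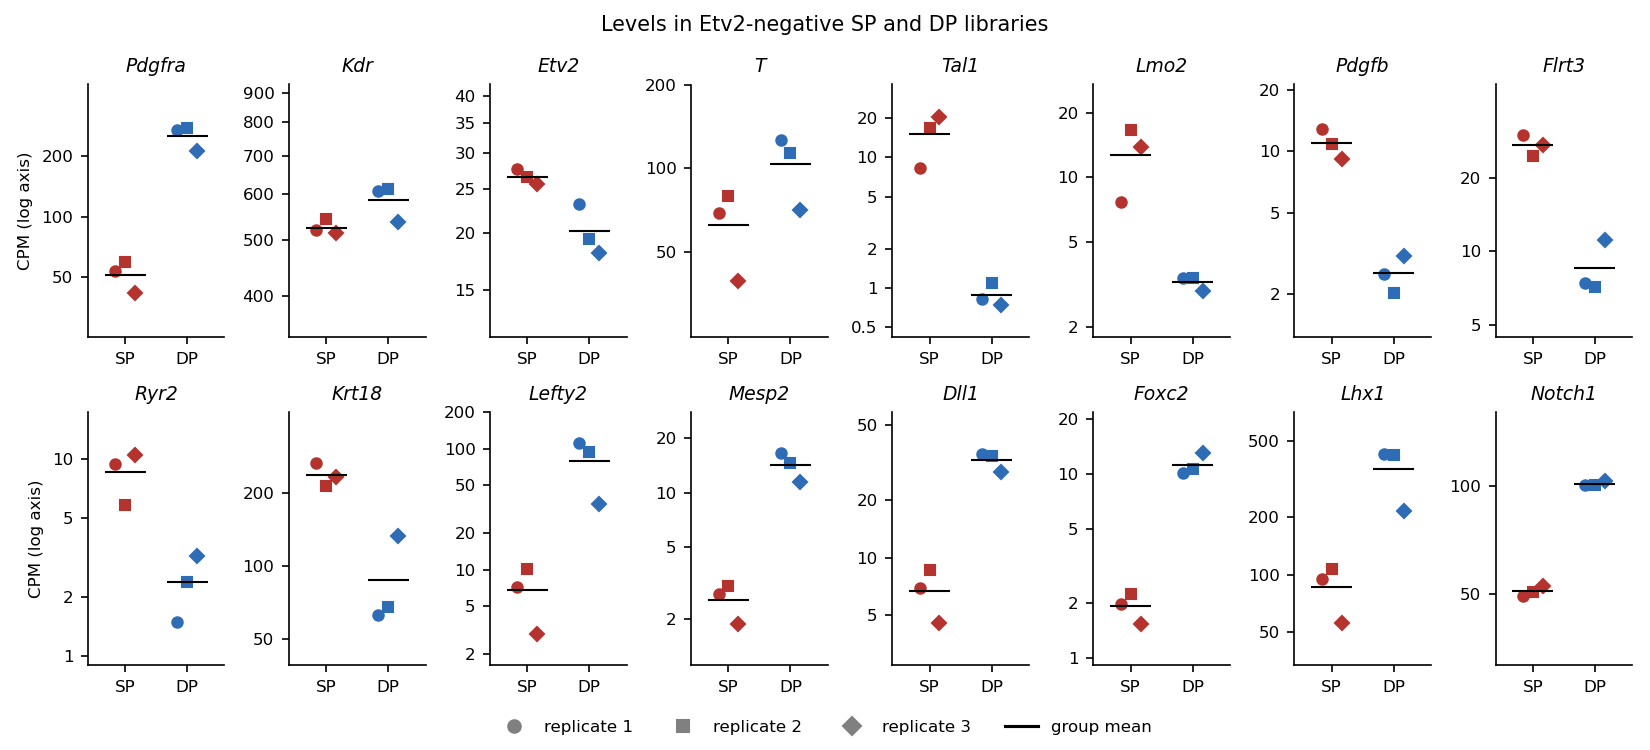
Level in each library (CPM, log axis with its own range in each panel) of 16 genes in SP (red, left) and DP (blue, right) Etv2-negative cells, with the marker shape giving the replicate and a line at the group mean. Kdr and T overlap between the gates, while Pdgfra, Tal1, Pdgfb, Lefty2, Mesp2, Dll1 and Foxc2 do not, and DP replicate 3 is the DP library closest to SP for Flrt3, Krt18, Lefty2 and Lhx1.

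Genes of paraxial and presomitic mesoderm, the tissue that segments into somites, were lower in SP in most of the members tested. Of 19 list genes 14 could be tested, and 10 of these were lower in SP, 0 were higher and 4 were not called. The median log2 fold change of the 14 was -2.14, against 0.00 for all genes tested. Beside Mesp2, Dll1, Dll3, Lfng, Pcdh8, Pcdh19 and Foxc2, the lower genes were Foxc1 (-2.09), the T-box factor Tbx6 (-1.55) and Aldh1a2 (-1.68 ± 0.20), the enzyme that makes retinoic acid in this tissue. The summed level of the list was 100, 107 and 138 CPM in SP libraries by rank and 307, 378 and 389 CPM in DP libraries. Of those not called, Msgn1 stood at -0.54, Tcf15 at -0.94, Rspo3 at -0.36 and Meox1 at -0.16. The 5 genes not tested, Hes7, Ripply2, Meox2, Pax3 and Uncx, stayed at or below 0.542 CPM in every library. The count of 10 lower genes was the same without any of the 6 libraries, 12 were lower at an unadjusted p below 0.05 with 0 higher, and DESeq2 gave 10 lower and 0 higher. In bulk libraries, fewer cells of a type and less RNA per cell cannot be told apart, here and in the lists that follow. Over all genes tested, 6.1% were called higher and 4.84% lower, which is the background for this and every later list count.

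Notch signaling times segmentation and is also used in arterial endothelium, and transcripts of several of its genes were lower in SP. Of 18 receptors, ligands, modifiers and targets, 14 were tested, 8 were lower and 0 higher, with a median of -0.61. Among the 8 were Dll1, Dll3 and Lfng, which are also counted on the paraxial list. The receptor Notch1 (chromosome 2, 26457903 to 26516663, minus strand) had 49.2, 50.7 and 52.6 CPM in SP and 101, 101 and 104 CPM in DP libraries. Notch1 was at 0.50 times its DP level (-1.0 ± 0.13, edgeR adjusted p = 0.000776), with a very small spread in both gates. Notch3 (-0.33), the ligand Jag1 (-0.86), the effector Hey1 (-0.61) and the feedback inhibitor Nrarp (-0.74) also fell, while Notch2 (0.28), Jag2 (0.49) and Hes1 (-0.04) were not called. At an unadjusted p below 0.05, 2 were higher and 9 lower, and DESeq2 called 0 higher and 8 lower. Without DP replicate 2 the lower count was 5, and without SP replicate 2 there was 1 higher gene.

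Primitive streak and nascent mesoderm genes, which are active as cells leave the epiblast, were lower in part. Of 21 tested genes 9 were lower, 1 was higher and 11 were not called, with a median of -0.93. DESeq2 called 11 lower and 1 higher, and the lower genes numbered 7 to 12 when 1 library was left out. With the replicate number as a block, a pairing that the labels do not give, 15 were lower, T among them. The LIM-homeobox factor Lhx1 had 94.6, 108 and 56.1 CPM in SP and 424, 424 and 215 CPM in DP libraries (-2.04 ± 0.36, edgeR adjusted p = 0.00395). DP replicate 3 lay between the other DP libraries and SP. Gsc of the anterior streak (-1.84 ± 0.37), Wnt8a (-1.66 ± 0.25), the Wnt target Sp5 (-1.64 ± 0.35), Mesp1 (-1.47 ± 0.26), Snai1 (-1.30 ± 0.18), Fgf8 (-1.21 ± 0.31) and Wnt3 (-0.84) were lower as well. The exception was the caudal factor Cdx4, which was higher (1.13). T, Mixl1 (-0.93), Eomes (-1.13), Tdgf1 (-1.58) and Evx1 (-0.41) were not called. Tdgf1 can share reads with a close pseudogene copy. The summed level of the list was 737 to 1352 CPM in SP and 1781 to 2941 CPM in DP libraries. In the Nodal pathway, which induces the streak, Lefty1 (-1.73 ± 0.38) and Lefty2 fell, 0 genes rose, and Nodal itself stood at -0.20 among the 10 of 12 not called. At an unadjusted p below 0.05, 4 Nodal pathway genes were lower and 0 higher, DESeq2 called 3 lower and 0 higher, and edgeR called 4 lower without DP replicate 3 or SP replicate 2 and 1 without DP replicate 2 or SP replicate 1.

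BMP genes moved the other way. BMPs are secreted ligands that pattern posterior and lateral mesoderm, and Id, Smad6, Smad7 and Msx genes respond to them. Of 19 list genes, all tested, 7 were higher and 1 lower in SP, with a median of 0.35. Bmp4 had 196, 187 and 208 CPM in SP and 92.6, 95.4 and 149 CPM in DP libraries (0.81 ± 0.16, edgeR adjusted p = 0.00774). The gates did not overlap, and DP replicate 3 was the highest DP library. Bmp6 (1.05 ± 0.26) and Bmp5 (1.04 ± 0.24) also rose, although 46.7% of the exon length of Bmp5 overlaps another annotated gene, Gm26903. Among the response genes Msx2 (0.68 ± 0.15), Smad6 (0.48), Id3 (0.40) and Smad7 (0.35) rose, Id1 fell (-0.43), and Id2 (0.53), Bambi (0.33) and Msx1 (0.22) were not called. Without DP replicate 1, DP replicate 2 or SP replicate 3 the higher genes numbered 3, 3 and 4, and Id1 was called in none of the fits that left out a library other than SP replicate 2.

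Lateral plate and extraembryonic mesoderm genes were mixed. Of 20 tested, 5 were higher and 2 lower, with a median of 0.24. The higher genes were Bmp4, Msx2, the cytoskeletal giant Ahnak (1.38 ± 0.31), the factor Hand1 (0.50 ± 0.15) and Vim (0.45). Hand1 had 701, 624 and 719 CPM in SP and 427, 404 and 612 CPM in DP libraries (edgeR adjusted p = 0.0428), so that DP replicate 3 came close to SP. The Hand1 call was made without DP replicate 3 but not without any other library. The lower genes were Irx3 (-1.78 ± 0.18) and Twist1 (-1.02 ± 0.09). Without DP replicates 1, 2 and 3 the higher genes numbered 1, 1 and 8, and without SP replicate 1 they numbered 3.

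Among Wnt, FGF and retinoic acid genes, calls went in both directions. Of 22 Wnt genes tested, 3 were higher and 7 lower: Wnt2b, Wnt8a, Sp5, the antagonist Sfrp1 (-1.49 ± 0.17), Wnt3, Lef1 (-0.75) and Wnt5a (-0.64) fell, while Lgr5 (1.37), Apcdd1 (0.68) and Nkd1 (0.37) rose. Sfrp1 had 11, 12.9 and 12.4 CPM in SP and 26.8, 35.5 and 39.5 CPM in DP libraries. In contrast to Lhx1 or Lefty2, its DP replicate 3 was the farthest from SP. Of 22 FGF genes, 2 were higher and 6 lower. The ligands Fgf4 (-1.30 ± 0.19), Fgf8 and Fgf3 (-0.46 ± 0.13) and the pathway genes Etv5 (-0.45), Spry2 (-0.37) and Spred2 (-0.28) fell, and the receptor Fgfr2 (1.23 ± 0.31) and Spry1 (0.43) rose. The lower FGF genes numbered 2 without DP replicate 1 or 2, and without SP replicate 2 or 3 they numbered 3. Of the higher FGF genes 0 were called without DP replicate 1, DP replicate 2, SP replicate 1 or SP replicate 3, and the higher Wnt genes numbered 5 without DP replicate 3.

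Of 16 retinoic acid genes tested, 1 was higher and 5 lower, where 6.1% and 4.84% of all genes tested were so called. Aldh1a2 had 9.04, 10.8 and 11.6 CPM in SP and 29.2, 28.0 and 43.5 CPM in DP libraries (edgeR adjusted p = 0.000325). All DP libraries were above all SP libraries, with replicate 3 the highest. The binding protein gene Crabp1 (-1.01 ± 0.12), the degrading enzyme gene Cyp26a1 (-0.81 ± 0.21) and the receptor Rxra (-0.46) fell, and Aldh1a3 (0.83 ± 0.24), at 0.911 CPM in SP and 0.517 CPM in DP, rose. The Aldh1a3 call was lost without each of the 6 libraries, with DESeq2, with no filter on low counts and when only the compared groups were fitted. The higher genes numbered 2, neither of them Aldh1a3, without DP replicate 3 and 0 without any other library.

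Blood and endothelial regulators were higher in SP although both gates were reporter-negative. Of 18 hematopoietic genes 15 were tested, 11 were higher and 0 lower, with a median of 1.55. The summed level of the list was 95.1 to 130 CPM in SP and 40.2 to 50.4 CPM in DP libraries. Beside Tal1 and Lmo2 these were Gfi1b, Ikzf1, Gata1, Myb (2.87), Lyl1 (2.09), Cbfa2t3 (1.55), Spi1 (1.49), Gata2 (1.26) and Runx1 (1.06). Several of these rested on few counts. Gata1, the erythroid GATA factor, had 15, 20 and 41 counts in SP and 1, 1 and 6 counts in DP libraries, a ratio of pooled counts, scaled to the pooled totals, of 9.50 (95% counting interval 4.58 to 22.8). Ikzf1, a lymphoid zinc finger factor, had 24, 48 and 102 counts in SP and 3, 4 and 5 in DP libraries, a ratio of 14.5 (8.09 to 28.6). Gfi1b, a repressor in blood formation, had 8, 19 and 42 counts in SP and 2, 0 and 1 in DP libraries, a ratio of 23.0 with a counting interval of 7.55 to 114. For these 3 genes SP replicate 3 was the highest and SP replicate 1 the lowest. The pan-leukocyte gene Ptprc and Vav1 were too low to test, at or below 0.163 CPM in every library. DESeq2 called 10 hematopoietic genes higher and 0 lower, and edgeR called 4, 4 and 5 higher without DP replicate 1, DP replicate 2 and SP replicate 3.

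Of 28 endothelial genes 25 were tested, 10 were higher, 2 lower and 13 not called, with a median of 0.84. Cdh5, which encodes VE-cadherin of endothelial junctions, had 40, 96 and 117 counts in SP and 3, 3 and 4 counts in DP libraries, a ratio of pooled counts, scaled to the pooled totals, of 25.3 (95% counting interval 13.5 to 53.4). Sox7, a SoxF factor of early endothelium and endoderm, had 2.80, 6.18 and 6.45 CPM in SP and 0.235, 0.331 and 0.673 CPM in DP libraries (3.61 ± 0.49, edgeR adjusted p = 0.000801). In both genes SP replicate 1 was the lowest SP library and no DP library reached it. The others that rose were Erg (3.55 ± 0.81), Esam (2.53 ± 0.56), the angiopoietin receptor Tek (2.52), Lmo2, Sox17 (1.68 ± 0.20), Rasip1 (1.25), Plvap (0.86) and the TGF-beta co-receptor Eng (0.64). Erg rested on 6, 19 and 26 counts in SP and 1, 2 and 1 in DP libraries. Esam rested on 13, 35 and 35 counts in SP and 5, 6 and 3 in DP libraries. The Erg call was lost without DP replicate 1, DP replicate 2 or SP replicate 3, and that of Esam without DP replicate 2. Robo4 (-1.05) and She (-0.48) fell, and Pecam1 (0.28), Fli1 (0.70), Egfl7 (0.44) and Tie1 (2.71) were not called. The summed level was 185 to 236 CPM in SP and 142 to 174 CPM in DP libraries. Without DP replicate 1 or 2 the higher genes numbered 6. Of the lower genes 0 were called without DP replicate 2, SP replicate 1 or SP replicate 3 and 1 without DP replicate 1, DP replicate 3 or SP replicate 2.

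Of the 9 primitive erythroid genes 5 were tested and 0 were called, with 2 higher and 0 lower at an unadjusted p below 0.05 and likewise by DESeq2. The embryonic globin gene Hbb-bh1 had 0, 9 and 15 counts in SP and none in DP libraries, which is at least 8.0-fold higher in SP against a limit of 3 counts over the DP group, taking the SP counts as exact, with a lower 95% counting limit of 6.02 for the ratio (edgeR adjusted p = 0.172). Hba-x, Hbb-y and Hba-a1 stayed at or below 0.108 CPM in every library.

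Of 6 PDGF genes, Pdgfb and Pdgfa rose, 3 were not called and Pdgfra, the gene of the sort, fell. Pdgfa had 22.6, 23.2 and 23.1 CPM in SP and 16.3, 16.4 and 18.4 CPM in DP libraries (0.43 ± 0.12, edgeR adjusted p = 0.0329), although 26.1% of its exon length overlaps another annotated gene, 6330403L08Rik. Its gates did not overlap, but the call was lost without DP replicate 1, DP replicate 2 or any SP replicate, which leaves Pdgfb as the only higher gene of the list. The other receptor, Pdgfrb, was at 53.0 ± 5.69 CPM in SP and 51.4 ± 6.35 CPM in DP (0.04 ± 0.14, edgeR adjusted p = 0.893). Of 10 VEGF receptors and ligands 0 were called, with 3 higher and 0 lower at an unadjusted p below 0.05 and 2 higher and 0 lower by DESeq2. Without DP replicate 3 there were 2 higher and without SP replicate 1 there was 1. Their summed level was 1088 to 1120 CPM in SP and 1062 to 1095 CPM in DP libraries.

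Of 21 cardiac progenitor genes tested, 2 were higher and 3 lower, where 6.1% and 4.84% of all genes tested were so called. Mesp1, which marks the earliest cardiac mesoderm, had 70.6, 83.3 and 65.8 CPM in SP and 240, 195 and 175 CPM in DP libraries (-1.47 ± 0.26, edgeR adjusted p = 0.00345). Isl1 of the second heart field (-0.35 ± 0.08) and Gata6 (-0.22) were also lower, while Tbx20 (0.72 ± 0.17) and Hand1 were higher and Nkx2-5 (0.20) and Tbx5 (0.40) were not called. Mesp1 was lower in every SP library than in any DP library. Without DP replicate 3 there were 4 higher genes, and without DP replicate 1, DP replicate 2, SP replicate 1 or SP replicate 3 there were 0.

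Of 14 cardiomyocyte sarcomere and calcium handling genes 12 were tested, 4 were higher and 0 lower, with 7 higher and 0 lower at an unadjusted p below 0.05 and 4 higher and 0 lower by DESeq2. Beside Ryr2 these were the actin-binding Nebl (1.51 ± 0.22), the troponin gene Tnnc1 (1.35 ± 0.22) and the myosin light chain gene Myl4 (0.86 ± 0.21), whereas Tnnt2 (0.54), Actc1 (0.80), Myl7 (-0.31) and Ttn (-0.21) were not called. Tnnc1 had 9.86, 7.77 and 8.36 CPM in SP and 2.66, 2.71 and 4.81 CPM in DP libraries. The summed level of the list was 67.0 to 86.0 CPM in SP and 49.7 to 60.8 CPM in DP. The ventricular genes Myl2 and Myh7 stayed at or below 0.239 CPM.

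Of 12 smooth muscle genes, 3 were higher and 0 lower, with 7 higher and 1 lower at an unadjusted p below 0.05 and 5 higher and 0 lower by DESeq2. They were Myl9 (1.11 ± 0.32), Cnn2 (0.83 ± 0.16) and Tpm1 (0.76 ± 0.14), and Acta2 (0.48) and Tagln (0.48) were not called. Myl9 had 19.2, 12.4 and 7.06 CPM in SP and 7.09, 5.45 and 5.39 CPM in DP libraries, so its gates overlapped at SP replicate 3. The Myl9 call was made without SP replicate 3 but not without any other library. It was also lost when only the compared groups were fitted. The higher genes of the list numbered 5 without SP replicate 3 and at least 2 with any 1 library left out.

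Several epithelial genes were higher and a pair of mesenchymal regulators lower. Of 17 genes on the epithelial and mesenchymal transition list, 5 were higher and 2 lower. The simple-epithelium keratin Krt18 (chromosome 15, 102028180 to 102032027, plus strand) had 266, 212 and 232 CPM in SP and 63.1, 67.9 and 133 CPM in DP libraries (1.43 ± 0.25, edgeR adjusted p = 0.00319). Its partner Krt8 had 354, 326 and 345 CPM in SP and 138, 144 and 231 CPM in DP libraries (1.00 ± 0.18, edgeR adjusted p = 0.00395), with 73.3% of its 50-base windows unique. For both keratins DP replicate 3 lay between the other DP libraries and SP. The tight junction gene Cldn7 (0.97), E-cadherin, encoded by Cdh1 (0.84), and Vim rose too, and the repressors Snai1 and Twist1 fell. Snai1 had 55.4, 60.6 and 48.5 CPM in SP and 156, 143 and 106 CPM in DP libraries (edgeR adjusted p = 0.000776). Among the 10 genes not called were the mesenchymal Zeb1 (0.22) and Zeb2 (0.21) and the epithelial Epcam (0.13) and Grhl2 (-0.16), and Vim is itself a mesenchymal marker. Without DP replicate 1, DP replicate 2 or SP replicate 1 the higher genes numbered 2, 2 and 3.

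Of 16 matrix genes tested, Col1a1 (1.13 ± 0.33), Tnc (0.67 ± 0.20) and Sparc (0.33 ± 0.08) were higher and 0 lower, with 7 higher and 2 lower at an unadjusted p below 0.05 and 3 higher and 2 lower by DESeq2. Col1a1 had 223, 170 and 175 CPM in SP and 51.6, 55.4 and 153 CPM in DP libraries (edgeR adjusted p = 0.0475). DP replicate 3 had nearly the SP level, DESeq2 did not call Col1a1, and edgeR called it without DP replicate 3 but not without any other library. Without DP replicate 1, DP replicate 2, SP replicate 1 or SP replicate 3 0 matrix genes were called higher. Without DP replicate 3 there were 5.

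Markers of other cell types moved in both directions. Of 16 endoderm genes 14 were tested, 4 were higher and 3 lower. Sox17 had 8.21, 7.41 and 6.72 CPM in SP and 2.31, 1.6 and 3.1 CPM in DP libraries (edgeR adjusted p = 0.000389), and Foxa2 (0.99) was higher as well. Sox7 and Sox17 are endothelial genes too, while Afp and Ttr stayed at or below 0.303 CPM in every library. Lama1 (-1.14 ± 0.12), Cxcr4 (-0.67) and Gata6 were lower, and the summed level of the list was 216 to 239 CPM in SP and 286 to 310 CPM in DP. Without DP replicate 2 the lower genes numbered 1.

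The feeder fibroblast list summed to 8.94 to 11.6 CPM in SP and 4.98 to 7.44 CPM in DP libraries. Of its 10 genes 4 were tested and Pdpn was higher (1.25 ± 0.24), with 9.50, 7.15 and 5.83 CPM in SP and 2.98, 2.86 and 3.57 CPM in DP libraries. Lum, Fap and Dpt had no counts in these 6 libraries and Dcn was at or below 0.033 CPM. Of 13 neuroectoderm genes 6 were tested. Nes was higher (0.81 ± 0.20) and Zic2 lower (-1.27 ± 0.23), while Sox1 and Pax6 stayed at or below 0.331 CPM. Of 19 pluripotency genes tested, Tfcp2l1 (1.17 ± 0.25) and Klf5 (0.84) were higher, and the epiblast gene Otx2 (-2.06 ± 0.38), Fgf4, Pou5f1 (-1.15 ± 0.22) and Dppa5a (-0.50) were lower. Pou5f1 had 63.7, 71.7 and 46.0 CPM in SP and 157, 138 and 107 CPM in DP libraries. Nes was called without SP replicate 3 but not without any other library. Of the higher pluripotency genes 0 were called without DP replicate 1 and 1 without DP replicate 2, SP replicate 1 or SP replicate 2. The part of these markers in the other differences was not tested.

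Among 17 tested genes of the Hox clusters, which encode position along the body axis, 2 were higher, among them Hoxd1 (1.53 ± 0.24), and Hoxa2 (-1.24 ± 0.32) and Hoxb1 (-0.72 ± 0.10) were lower. Hoxd1 had 10.0, 6.57 and 8.66 CPM in SP and 2.12, 2.23 and 4.34 CPM in DP libraries. Hoxb1 had 21.4, 19.6 and 19.1 CPM in SP and 36.8, 29.7 and 32.8 CPM in DP libraries (edgeR adjusted p = 0.000864). Hoxa2 rested on 7, 7 and 11 counts in SP and 16, 19 and 25 in DP libraries. The shares over all genes tested were 6.1% higher and 4.84% lower. Without DP replicate 1, DP replicate 2 or SP replicate 1 there was 1 gene in each direction, without SP replicate 3 there was 1 higher, and without DP replicate 3 or SP replicate 2 there was 1 lower.

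Of 24 cell cycle genes, 9 were lower and 1 higher in SP, with small differences. The mitotic genes Cdc20 (-0.48 ± 0.07), Aurka (-0.37 ± 0.05), Aurkb (-0.37 ± 0.06), Cdk1 (-0.35), Ccnb1 (-0.33), Plk1 (-0.32), Bub1 (-0.31), Top2a (-0.27) and Ccnb2 (-0.23) fell. Aurka had 82.0, 81.6 and 80.7 CPM in SP and 102, 109 and 104 CPM in DP libraries (edgeR adjusted p = 0.000849). The G1 cyclin gene Ccnd2 rose (0.48 ± 0.12), and Mki67 (0.02), Pcna (-0.10) and Mcm2 (-0.06) were not called. There were 0 higher genes without DP replicate 1, DP replicate 2 or SP replicate 1, and without DP replicate 3 there were 2. Of the 24, 0 reached a call against a minimum change of 1.5-fold.

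Of 21 glycolysis and hypoxia genes 0 were called, with 1 higher and 0 lower at an unadjusted p below 0.05 and 0 by DESeq2, while 3 were higher without DP replicate 3 and 2 without SP replicate 2. Of the 13 mitochondrial genes, against 10.9% of all genes tested, only mt-Nd4l was called (0.34 ± 0.09). None of its 50-base windows was unique, and the call was made without SP replicate 3 but not without any other library. Of 16 dissociation and stress genes, the immediate early factors Egr2 (-1.64 ± 0.38) and Egr1 (-0.84 ± 0.23) were lower and 0 higher, with 4 higher and 2 lower at an unadjusted p below 0.05 and 1 higher and 2 lower by DESeq2. Egr1 had 21.4, 28.6 and 24.3 CPM in SP and 38.8, 56.1 and 37.8 CPM in DP libraries. The lower genes numbered 0 without DP replicate 2, SP replicate 1 or SP replicate 3 and 1 without DP replicate 1 or SP replicate 2, and 2 were higher without DP replicate 3.

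**Figure D3:**
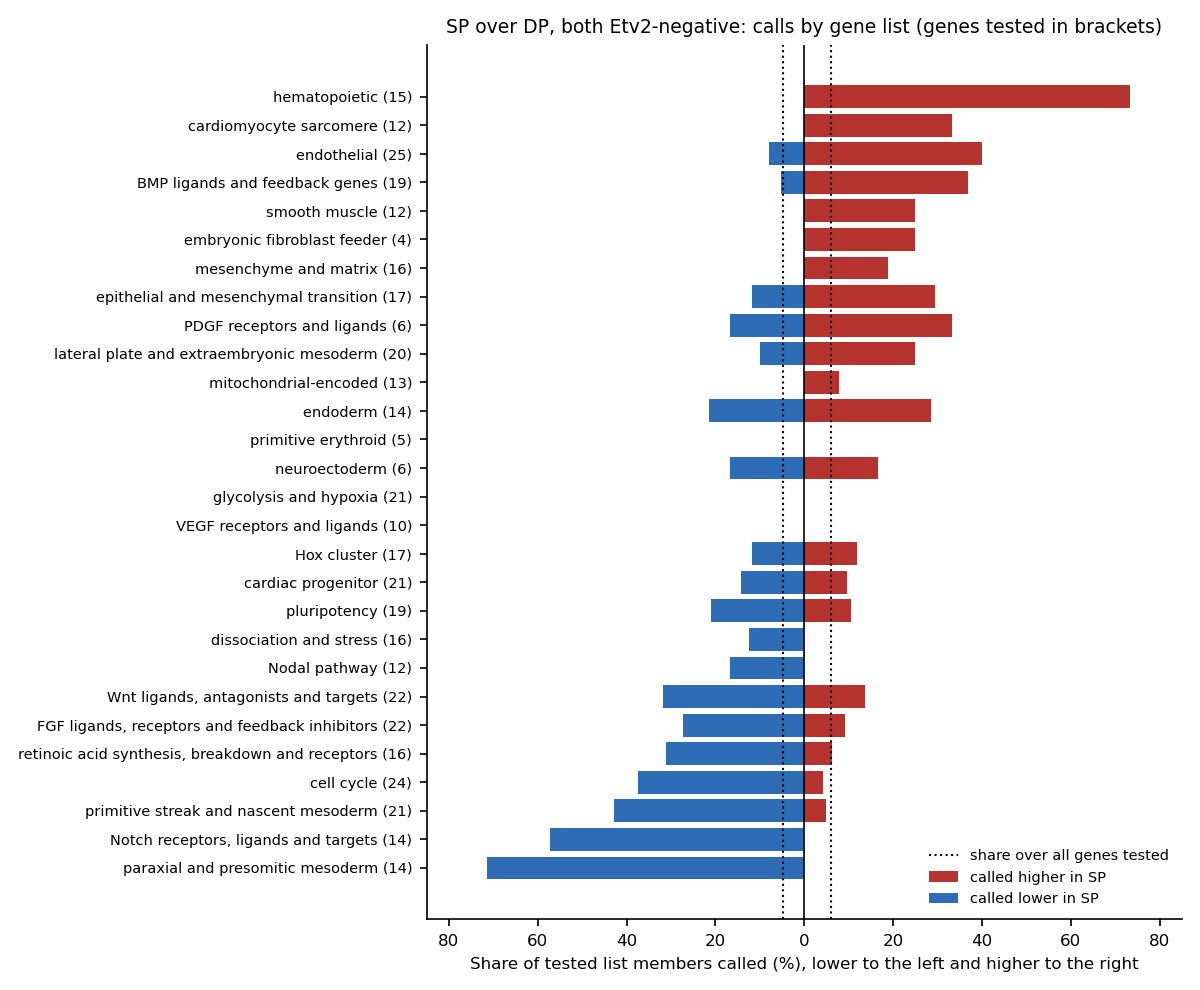
Share of the tested members of each of the 28 gene lists called higher (red, to the right) or lower (blue, to the left) in SP than in DP Etv2-negative cells, in percent, with dotted lines at the shares over all genes tested (6.1% higher, 4.84% lower). Hematopoietic genes reach furthest to the right, with 11 of 15, and paraxial mesoderm genes furthest to the left, with 10 of 14.

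The same gates in WT cells share no library with this comparison and were counted and fitted separately, so their values are set side by side. In WT 2580 of 16288 genes were called between SP and DP, which is 15.8%, with 1479 higher (9.08%) and 1101 lower (6.76%). That count was 1525 without WT DP replicate 3 and 1509 without WT SP replicate 1. Of 15354 genes tested in both lines, 1850 were called in the Etv2-negative cells, and 1092 of these (59.0%) were called in the same direction in WT, where 16.5% of the genes tested in both were called in either direction. These 1092 made up 43.2% of the 2527 WT calls. The 3 genes called in opposite directions were Cacna2d2 (0.44 in Etv2-negative cells and -0.92 in WT), Lbh (0.87 and -0.70) and She (-0.48 and 0.48). Of the 463 genes with at least a 2-fold change, 455 had the same sign in WT.

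Paraxial genes were lower in WT in the same number, 10 of 14, with 0 higher and a median of -2.27. Mesp2 stood at -2.47 ± 0.19 in Etv2-negative cells and -2.89 ± 0.28 in WT, and Foxc2 at -2.55 ± 0.21 and -2.32 ± 0.30. Tal1 stood at 4.09 ± 0.46 in Etv2-negative cells and 3.51 ± 0.15 in WT. Blood and endothelial lists had more calls in WT cells, which were not split by Etv2, with 15 of 15 hematopoietic and 24 of 25 endothelial genes higher. The difference between the lines was not tested.

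The gates of tdTomato-positive cells share no library with this comparison either, but come from the same fit. There 2456 genes were called, 13.9% of those tested, with 1229 higher (6.95%) and 1227 lower (6.94%), and gates that do not overlap in CPM were found for 32.4%. The count was 1359, 1593 and 1342 without SP Etv2-positive replicates 1, 2 and 3. Of the 1936 genes called in reporter-negative cells, 461 (23.8%) were called in the same direction and 44 in the opposite direction in reporter-positive cells. A test of the difference between the 2 gate effects called 702 genes, 3.97% of those tested, with 433 more positive and 269 more negative in Etv2-negative cells. That count depended on single libraries and was 50 without DP Etv2-negative replicate 2, 114 without replicate 1 and 1268 without replicate 3. It was 119 without both libraries of high ribosomal RNA content, and 143, 162, 188, 190, 211 and 367 without SP Etv2-negative replicate 1, SP Etv2-negative replicate 3, SP Etv2-positive replicate 2, SP Etv2-positive replicate 3, DP Etv2-positive replicate 3 and SP Etv2-negative replicate 2.

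Pdgfra also fell with the reporter (-2.0 ± 0.20), and its difference between the gate effects, -0.29 ± 0.27, was not called. Tal1 (0.98 ± 0.60), Lmo2 (-0.48 ± 0.34), Mesp2 (-0.94 ± 0.40) and Dll1 (-0.48 ± 0.44) did not pass that test either, and 0 of 15 hematopoietic genes had a more positive difference and 2 a more negative one. Tal1 averaged 15.2 CPM in SP and 0.883 CPM in DP reporter-negative cells, and 136 CPM in SP and 15.7 CPM in DP reporter-positive cells.

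Foxc2 had the largest difference among the named genes. It was lower in SP without the reporter (-2.55 ± 0.21) and at 0.54 ± 0.23 with it, where it averaged 2.61 CPM in SP and 1.79 CPM in DP (difference -3.09 ± 0.31, edgeR adjusted p = 0.00362). Notch1 fell without the reporter (-1.0 ± 0.13) and rose with it (0.51 ± 0.13), a difference of -1.51 ± 0.19 (edgeR adjusted p = 0.00967). Lfng (-1.85 ± 0.42) and Wnt2b (-2.16 ± 0.51) also differed, with no call in reporter-positive cells. Notch1 and Foxc2 thus had opposite signs with and without the reporter. Foxc2 was not called with the reporter (edgeR adjusted p = 0.136), and its gates overlapped there. In WT both genes were lower in SP.

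Several epithelial, sarcomere, BMP and matrix genes that rose in reporter-negative SP cells had a gate effect that differed from that in reporter-positive cells. Krt8 rose without the reporter (1.00 ± 0.18) and fell with it (-0.58 ± 0.18), a difference of 1.58 ± 0.25 (edgeR adjusted p = 0.0130). Krt18 (1.78 ± 0.34), Col1a1 (2.04 ± 0.47), Ryr2 (1.99 ± 0.37), Nebl (2.17 ± 0.31), Tnnc1 (1.87 ± 0.29), Bmp5 (1.36 ± 0.34), Msx2 (0.94 ± 0.21), Hand1 (0.87 ± 0.21) and Fgfr2 (1.90 ± 0.43) had positive differences as well. By list, the difference was called positive for 8 of 19 BMP, 6 of 20 lateral plate and 5 of 12 sarcomere genes, with 0 negative in each, against 2.45% of all genes tested. The 6 largest called differences were taken among genes averaging at least 5 CPM over the 12 libraries, which leaves out Foxc2 at 4.39 CPM. Among these 6 genes, Spin2c had 56.7, 46.0 and 61.0 CPM in SP and 17.3, 15.8 and 34.8 CPM in DP Etv2-negative cells. In Etv2-positive cells Spin2c averaged 34.2 CPM in SP and 82.5 CPM in DP. Its difference was 2.54 ± 0.38, and Tdo2 (2.77 ± 0.62), Prrt4 (2.65 ± 0.46), Ripor3 (2.48 ± 0.34) and Extl1 (2.43 ± 0.39) had the same sign, while Dysf (-2.37 ± 0.38) had the opposite one. For the positive ones DP replicate 3 was the highest DP Etv2-negative library. The difference of Tdo2 lost its call in 9 of 20 alternative runs. Those of Prrt4, Extl1 and Dysf lost it without DP Etv2-negative replicate 2, and those of Spin2c and Ripor3 kept it in every run.

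**Figure D4:**
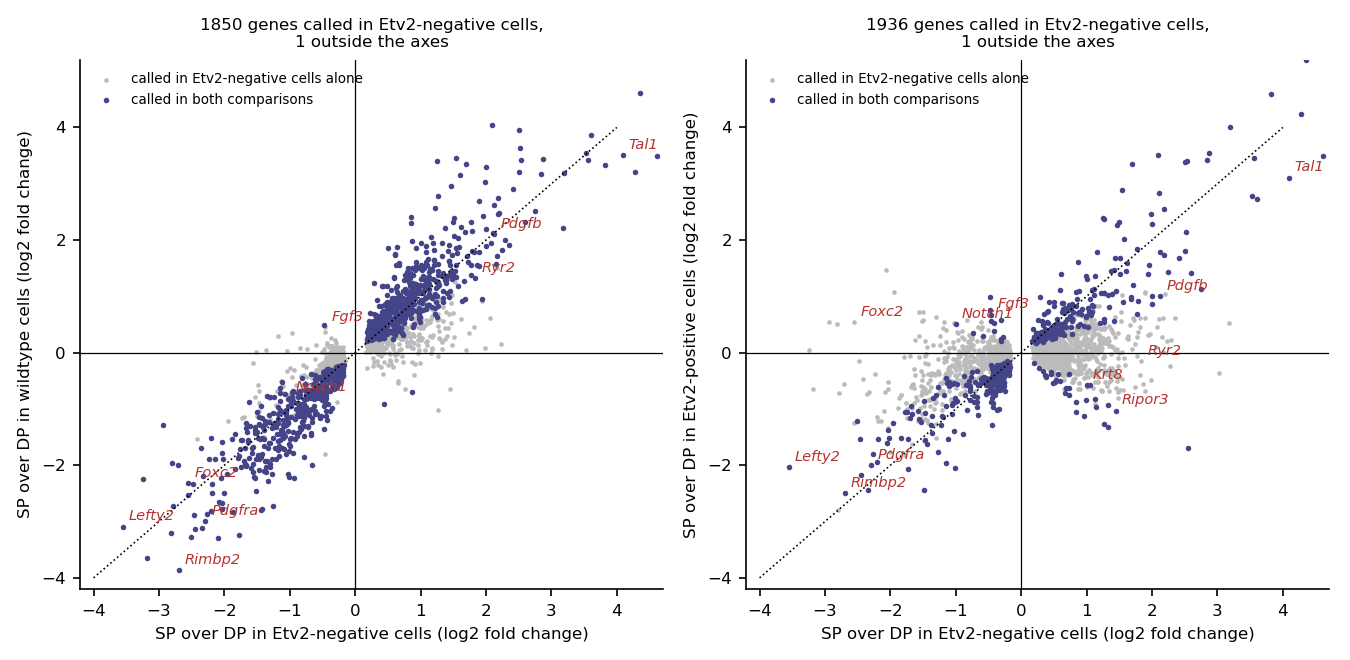
Each point is a gene called between SP and DP in Etv2-negative cells, with its log2 fold change there on the horizontal axis and that in WT cells (left, 1850 genes) or Etv2-positive cells (right, 1936 genes) on the vertical axis, and dark points called in both. Points follow the dotted line of equal change in WT, whereas in Etv2-positive cells many genes higher without the reporter lie near or below 0.

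**Figure D5:**
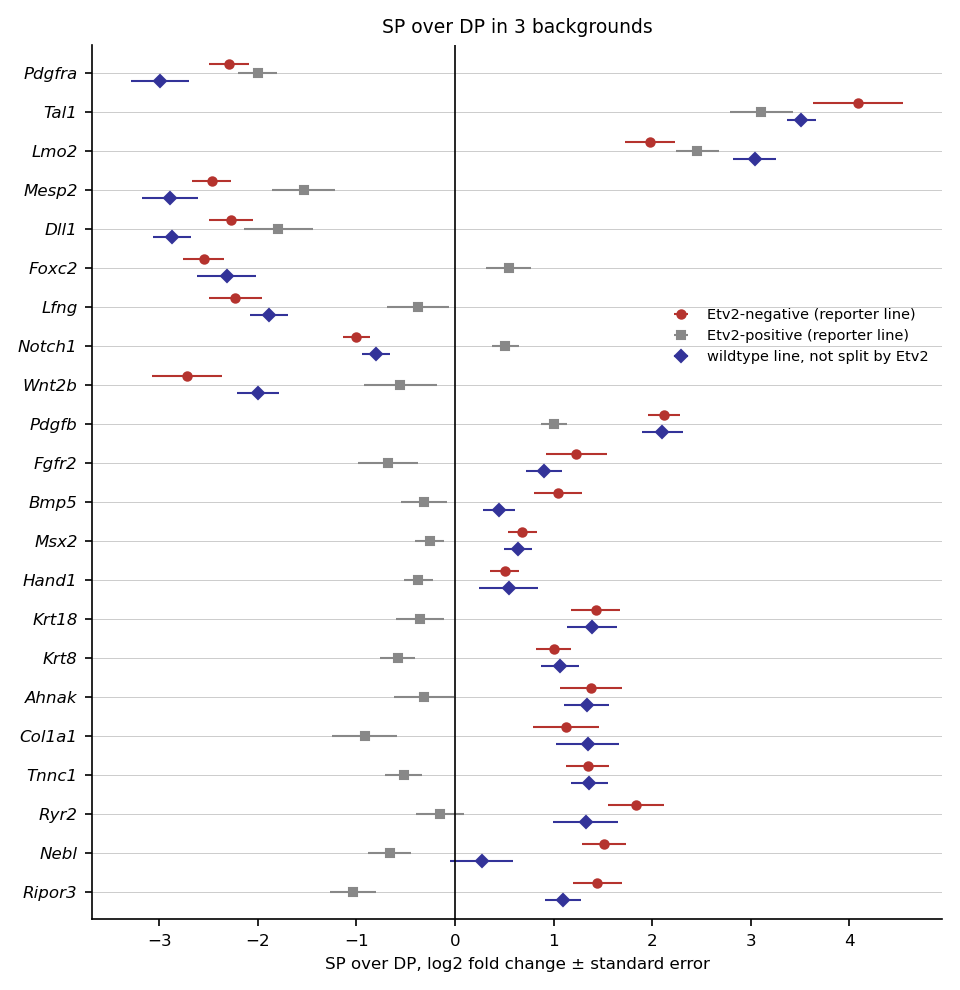
SP over DP log2 fold change with its standard error for 22 genes in Etv2-negative cells (red circles), Etv2-positive cells (grey squares) and WT cells (blue diamonds). Pdgfra, Tal1, Lmo2, Mesp2 and Dll1 have the same sign in all 3, while Foxc2, Notch1, Krt8 and Ripor3 lie on the other side of 0 in Etv2-positive cells. Foxc2 was not called in Etv2-positive cells.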

How the data were processed

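The authors deposited raw read counts per gene; reads were counted with featureCounts on mm10, per the submitters' processing notes, from stranded total RNA libraries, per the labels' protocols. The aligner, annotation and strand setting are not given in the sources used here, so reads of overlapping or antisense genes cannot be told apart. Gene names and positions came from GENCODE M21, which named 55227 of 55487 IDs.

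A joint fit held the 12 libraries of the reporter line and a separate fit the 9 libraries of the second set. In edgeR 4.0.16 (R 4.3.3), TMM scaling, filterByExpr and the quasi-likelihood F test were used with Benjamini-Hochberg adjustment over all genes tested, and calls were made at 0.05. Each SE was derived from the log2 fold change and its F statistic (size of the change over the root of F). Per-library CPM were counts scaled to each library's total over the genes tested times its TMM factor. The limit of 3 counts and the ratios of pooled counts used the totals of assigned counts. The procedure was tested on simulated data. DESeq2 1.42.0 was an alternative.

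Named genes were Pdgfra, Kdr, Etv2 and T. Also named were the 12 largest increases and decreases among called genes of at least 5 CPM with gates that did not overlap. To these came up to 4 called members of each of 28 lists and all tested members of lists of up to 10 genes. The last were the 6 largest called differences between gate effects among genes averaging at least 5 CPM over the 12 libraries. Other list members are given with values as examples. The comparison, the lists and the tests were chosen with earlier results of these data known. The share of counts on pseudogenes was 12.2 to 14.4% in reporter-line libraries, against 0.549 to 0.636% in those of the second set, so levels are not compared between the sets. Counting intervals cover counting error only. A few list members are not reported here.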

Additional observations from a re-analysis of the deposited data

Results flagged for a closer look

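The values below are differences between gate effects (SP over DP, log2, without minus with the Etv2 reporter) that passed the edgeR test of the difference itself, among the named genes. They are given with no explanation, and the dependence of this test on its libraries is given above.

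Differences below 0 were found for the mesoderm factor Foxc2 (-3.09), Dysf (-2.37), Wnt2b (-2.16), Fgf4 (-1.93), Lfng (-1.85), Notch1 (-1.51), the VEGF receptors Flt1 (-1.33) and Flt4 (-0.77), Fgf3 (-1.13), Lama1 (-0.70), Hoxb1 (-0.57) and the mitotic kinases Aurkb (-0.34) and Aurka (-0.30).

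Differences above 0 were found for growth factor genes, namely Vegfc (0.98), Pdgfb (1.11), Bmp5 (1.36), Pdgfc (1.84) and the receptors Pdgfrb (0.79) and Fgfr2 (1.90). They were found for the muscle genes Tpm1 (0.86), Myl4 (1.18), Tnnc1 (1.87), Ryr2 (1.99) and Nebl (2.17), for the transcription factors Hand1 (0.87), Msx2 (0.94), Hoxd1 (1.53) and Nfatc2 (1.55), and for Krt8 (1.58) and Krt18 (1.78). The matrix and surface genes Sparc (0.54), Flrt3 (1.18), Pdpn (1.35), Gjb2 (1.87) and Col1a1 (2.04) had positive differences, as had Ccnd2 (0.64), Ahnak (1.69), Parm1 (1.73), Tdrp (1.83), Extl1 (2.43), Ripor3 (2.48), Spin2c (2.54), Prrt4 (2.65) and Tdo2 (2.77).

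Fgf3 was lower in Etv2-negative SP cells (-0.46 ± 0.13), with every SP library below every DP library. In WT cells Fgf3 stood at 0.45 ± 0.20 and was not called. Every WT SP library lay above every WT DP library for Fgf3, and 32.1% of all genes tested in WT had gates that did not overlap. The difference between the lines was not tested.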

How the results depend on the processing

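No named gene changed direction between called values under any alternative run. Of 94 named calls between the Etv2-negative gates 40 were made under every alternative run and 54 were lost under at least 1. Of 25 named genes not called 15 stayed so and the others, Etv2, T, Pdgfc, Tdo2, Hbb-bh1, Vegfa, Vegfc, Nrp1, Flt4 and Nfe2, were called under at least 2 alternatives, the block and no filter on low counts among them. The 1936 calls became 148 against a minimum change of 1.5-fold and ranged between 787 (without DP replicate 1) and 2268 (without DP replicate 3) when 1 library was left out; they stood at 2789 with no filter on low counts and 2205 with DESeq2. The Etv2-positive calls became 1324 when only the compared groups were fitted and 1106 without both libraries of high ribosomal RNA, and ranged from 1342 to 2403 with 1 library left out. The difference between the gate effects gave 1740 calls with no filter, 1237 with DESeq2 and 119 without both libraries of high ribosomal RNA, and 50 to 1268 with 1 library left out. WT calls ranged from 1509 to 2683 with 1 library left out.

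With the replicate number as a block, calls numbered 2788 without the reporter, 3370 with it, 1537 for the difference and 3242 in WT. By list, under the block, lower genes numbered 15 for the primitive streak, against 9 without it, 7 for pluripotency (4), 5 for cardiac progenitors (3), 4 for Nodal (2), 2 for neuroectoderm (1), 2 for matrix (0) and 1 for smooth muscle (0). Higher genes numbered 8 for matrix (3), 5 for cardiac progenitors (2), 5 for Hox (2), 5 for smooth muscle (3), 5 for Wnt (3), 4 for VEGF (0), 4 for glycolysis (0), 2 for primitive erythroid (0), 2 for cell cycle (1), 2 for mitochondrial (1) and 1 for stress (0) genes. Between the Etv2-negative gates, same-numbered libraries deviated together with r = 0.096, 0.264 and 0.334, each the highest for its number. The values were 0.077, 0.134 and 0.269 between the Etv2-positive gates and 0.304, 0.342 and 0.092 in WT, again each the highest. That is a hint from the data, and the labels give no pairing. The causes of these changes were not tested. With 3 libraries a group, genes of few counts are the least precise.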

Other observations

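The genes in this section were chosen after their values were seen. Some further genes known from epithelial cells were higher in Etv2-negative SP cells, picked for that and not from a list. Of the epithelial genes on the fixed list, Epcam, Grhl2, Cldn6 and Esrp1 were not called. The keratin gene Krt19 averaged 51.3 CPM in SP and 18.9 CPM in DP (1.44 ± 0.23, edgeR adjusted p = 0.00188). The desmosome gene Pkp2 averaged 51.4 CPM in SP and 17.7 CPM in DP (1.54 ± 0.32, edgeR adjusted p = 0.00871). The polarity gene Llgl2 averaged 47.3 CPM in SP and 16.9 CPM in DP (1.48 ± 0.23, edgeR adjusted p = 0.0015). Podxl, a sialomucin of apical membranes, averaged 789 CPM in SP and 335 CPM in DP (1.24 ± 0.19, edgeR adjusted p = 0.00147).

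Some genes known from axon guidance and neural adhesion were lower in SP, picked for that and not from a list. The GDNF family receptor gene Gfra3 averaged 5.41 CPM in SP and 21 CPM in DP (-1.96 ± 0.16, edgeR adjusted p = 4.93e-05). Nrcam (-1.89 ± 0.26), the ephrin gene Efna3 (-1.58 ± 0.28), the ligand Slit1 (-1.36 ± 0.21), Robo3 (-1.36 ± 0.22), Sema6d (-1.28 ± 0.15), the semaphorin receptor gene Plxna2 (-1.10 ± 0.14) and Epha4 (-0.66 ± 0.13) were also lower, while the netrin receptor gene Unc5b was higher (0.47 ± 0.10). The apelin receptor gene Aplnr was lower in SP without the reporter (-0.73 ± 0.10) and higher with it (0.35 ± 0.10), a difference of -1.08 ± 0.14 (edgeR adjusted p = 0.0106).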
